A study of Mus musculus with 13 samples.

Results

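A group of 6 genes that carry pyruvate into mitochondria, carboxylate it and supply glycerol-3-phosphate was followed in bulk RNA-Seq of whole parametrial white adipose tissue (pmWAT): Pcx, Pck1, Gpd1, Gpd2, Mpc1 and Mpc2. The 6 genes were chosen by name from the 33618 genes of the count table and were each found by their Ensembl identifier. All 6 were among the 16753 genes that passed the filter on low counts. Parametrial fat was taken from 13 female mice, 1 library per mouse, 2 weeks posttamoxifen. The 7 control mice were Lmna fl/fl, with loxP sites around part of both Lmna alleles and no Cre. The 6 Lmna iADKO mice had the same floxed alleles plus Adipoq-CreERT2, a tamoxifen-inducible Cre driven by the adiponectin promoter and therefore aimed at adipocytes, not at the other cells of the tissue. Every mouse in both groups received tamoxifen at 50 mg/kg on 5 consecutive days at 12 to 14 weeks of age.

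As background, pyruvate made in the cytosol enters mitochondria through the mitochondrial pyruvate carrier, a complex of MPC1 and MPC2. Inside, pyruvate carboxylase (Pcx) turns it into oxaloacetate, which condenses to citrate for export to fatty acid synthesis or leaves as malate or aspartate. Cytosolic phosphoenolpyruvate carboxykinase (Pck1) draws on that oxaloacetate for glyceroneogenesis, the route that makes glycerol-3-phosphate without glucose. Cytosolic glycerol-3-phosphate dehydrogenase (Gpd1) makes glycerol-3-phosphate from dihydroxyacetone phosphate, and the mitochondrial enzyme (Gpd2) turns it back, so that together they form the glycerol phosphate shuttle. White adipocytes use glycerol-3-phosphate as the backbone of triacylglycerol and are known for little glycerol kinase.

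Library totals ran from 18854223 to 19776491 counts, so that counting error was small for all 6 genes. The target gene, Lmna, did not fall (iADKO libraries 80.1 to 109 CPM, fl/fl libraries 74.7 to 98.5 CPM, log2 fold change 0.19 ± 0.0789 (SE), adjusted p = 0.0785), although whole-gene counts also take in exons outside the floxed part and Lmna from other cells. The label iADKO was therefore not checked by its target gene, and fl/fl and iADKO stand throughout for libraries so labelled. Libraries fl/fl 5 and iADKO 6 stood apart from the others of their label, each toward the other label. The summed level of 6 adipocyte markers (Adipoq, Plin1, Cidec, Fabp4, Cfd and Plin4) was 16556 CPM in fl/fl 5, the lowest of its group (highest 25022), and 17910 CPM in iADKO 6, the highest of its group (lowest 10371). All 6 of these markers were lower in iADKO mice (median log2 fold change −0.78), and 4 of 7 macrophage markers were higher, with summed levels of 1771 to 4857 CPM in fl/fl mice and 2753 to 4756 CPM in iADKO mice. The fl/fl 5 library held the highest macrophage sum of its group and iADKO 6 the lowest of its group. In whole tissue, fewer adipocytes and less RNA per adipocyte cannot be told apart, and what these shifts contribute to the 6 genes was not tested. Each comparison below was therefore also made without fl/fl 5 and iADKO 6.

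All 6 genes were lower in iADKO pmWAT. Of the genes tested, 16.3% were lower and 14.1% were higher at an adjusted p under 0.05 (edgeR quasi-likelihood test, Benjamini-Hochberg over all genes). The median log2 fold change was −1.11 over the 6 genes and 0.03 over all genes tested. Levels of single genes are given as CPM, the count per library size after trimmed-mean (TMM) scaling, and fold changes as log2 of iADKO over fl/fl with the standard error. The mean fell 2.62-fold for Pcx, 2.28-fold for Pck1, 2.23-fold for Gpd2, 2.10-fold for Mpc1, 1.70-fold for Gpd1 and 1.52-fold for Mpc2.

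Pcx, the carboxylase, had the largest change of the 6. Its level in fl/fl mice had a lowest value of 1345, a median of 2513 and a highest value of 2645 CPM, and in iADKO mice a lowest value of 735, a median of 812 and a highest value of 1383 CPM. The groups overlapped through fl/fl 5 and iADKO 6, which held 1345 and 1383 CPM, while the other fl/fl mice were at 2394 CPM or more and the other iADKO mice at 884 CPM or less. The log2 fold change was −1.39 ± 0.179 (n = 7 and 6, edgeR adjusted p = 2.73e-04), and −1.67 without fl/fl 5 and iADKO 6 (edgeR adjusted p = 1.97e-08). The second fit left out the 2 mice nearest the other label in Pcx itself, so a larger change was built into that choice. The gene lies on the plus strand at chr19:4559902-4672189 (GRCm39, as are all positions here), and the annotated exons of the canonical transcript number 21. Its exons share 395 bases with Rce1 and 144 bases with Lrfn4 on the other strand.

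The mitochondrial pyruvate carrier subunits fell to different extents. Mpc1 (chr17:8501736-8516498) was at 93.0 to 239.5 CPM in fl/fl mice (median 194) and at 71.7 to 123 CPM in iADKO mice (median 91.1). Mpc2 (chr1:165287125-165308785) was at 101 to 206 CPM in fl/fl mice (median 196) and at 92.2 to 142 CPM in iADKO mice (median 125). In both genes fl/fl 5 was the lowest fl/fl mouse and iADKO 6 the highest iADKO mouse. The log2 fold change was −1.07 ± 0.192 for Mpc1 (edgeR adjusted p = 0.00171) and −0.61 ± 0.149 for Mpc2 (edgeR adjusted p = 0.00846). These were −1.31 and −0.79 when fl/fl 5 and iADKO 6 were left out. Exons of Mpc1 share 494 bases with the noncoding gene 4930506C21Rik, and exons of Mpc2 share 994 bases with Dcaf6 on the other strand.

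The subunit difference was tested within each mouse, where scaling cancels. Mpc1 minus Mpc2, in log2 CPM, was 0.03 ± 0.164 (SD) in fl/fl mice and −0.42 ± 0.152 in iADKO mice. Every iADKO mouse was below every fl/fl mouse, from −0.62 to −0.21 against −0.15 to 0.27. The difference of −0.45 (95% interval from −0.65 to −0.25) gave an exact permutation p of 0.000583, the smallest that 1716 splits of 7 and 6 mice allow, and 0.00321 after adjustment over the 11 such ratios tested. The difference was −0.52 without fl/fl 5 and iADKO 6.

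Pck1, the glyceroneogenic enzyme, was lower in iADKO pmWAT but varied most between mice of the same label. Its level ran from 616 to 1930.5 CPM in fl/fl mice (median 1343) and from 149 to 1143 CPM in iADKO mice (median 582). The lowest mouse of each group was number 2 (616 CPM in fl/fl 2 and 149 CPM in iADKO 2), and iADKO 6 was the highest iADKO mouse. In contrast to the other 5 genes, Pck1 was not low in fl/fl 5 (1339.6 CPM, near the group's median). The groups overlapped, with and without fl/fl 5 and iADKO 6. The log2 fold change was −1.19 ± 0.367 (edgeR adjusted p = 0.0271). This call lay near the threshold: it was lost without fl/fl 4 (−1.09, edgeR adjusted p = 0.0515), without iADKO 1 (−1.13, 0.0553) and without iADKO 4 (−1.17, 0.0549). Among fits with a single library left out, the one without iADKO 2 had the smallest change and kept the call (−0.99, edgeR adjusted p = 0.0212). Over all 23 alternatives the adjusted p of Pck1 lay between 0.00276 and 0.0927 and its log2 fold change between −1.65 and −0.99. The gene lies at chr2:172994744-173001066 on the plus strand.

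Gpd1, the cytosolic dehydrogenase, was at 1012 to 2505 CPM in fl/fl mice (median 1917) and at 902 to 1399 CPM in iADKO mice (median 1069.5). Again fl/fl 5 was the lowest of its group and iADKO 6 the highest of its group. The log2 fold change was −0.77 ± 0.178 (edgeR adjusted p = 0.00605) and −0.97 without those 2 mice. The gene lies at chr15:99615396-99622893, and its exons share 1679 bases with the noncoding gene Gm16537 on the other strand, which drew 3233 counts in all libraries together.

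Gpd2, the mitochondrial dehydrogenase, was at 111 to 202 CPM in fl/fl mice (median 174) and at 62.8 to 122 CPM in iADKO mice (median 69.1). All iADKO mice but iADKO 6 lay between 62.8 and 69.9 CPM, and iADKO 6 was at 122 CPM. The log2 fold change was −1.15 ± 0.168 (edgeR adjusted p = 5.47e-04) and −1.44 without fl/fl 5 and iADKO 6. The gene lies at chr2:57127515-57260734. Its exons share 945 bases with the noncoding gene A930012O16Rik on the other strand.

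**Figure D1:**
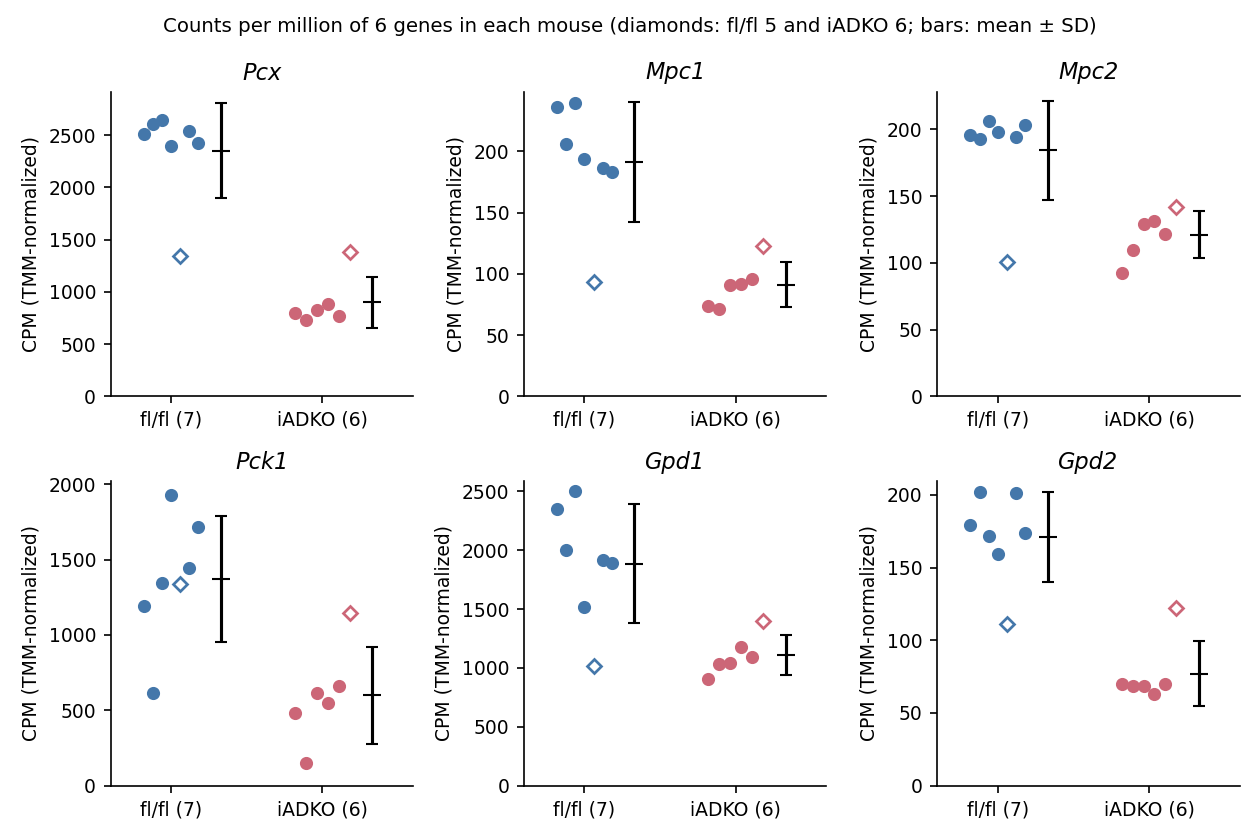
CPM (vertical axis, from 0) of the 6 genes in each of 7 fl/fl (blue) and 6 iADKO (red) mice, with the group mean ± SD in black. Open diamonds mark fl/fl 5 and iADKO 6, which hold 1345 and 1383 CPM of Pcx and through which the groups overlap in every gene except Pck1, whose overlap remains without them.

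Across the 13 mice, none of the 6 genes had every iADKO mouse below every fl/fl mouse, a pattern that 3.93% of all genes tested showed. Without fl/fl 5 and iADKO 6, all but Pck1 of the 6 genes showed it, as did 14.3% of all genes tested. Leaving out mice that lay toward the other label favours this pattern.

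Levels of different genes can be set side by side only roughly per length, as CPM per kilobase of annotated exon. That length merges the exons of all annotated transcripts, 3.5 kb for Mpc1 and 8.05 kb for Mpc2. Which transcripts the tissue used was not measured, so the order of genes depends on this length. Before division by length, Mpc1 and Mpc2 were close in fl/fl mice (means of 191 and 184 CPM). In fl/fl mice Gpd1 stood highest at 596 ± 159 (SD, n = 7), followed by Pcx at 377 ± 72.7 and Pck1 at 369.8 ± 113. Mpc1 came next at 54.7 ± 14.0, and Mpc2 (22.9 ± 4.61) and Gpd2 (20.8 ± 3.74) were lowest. The neighbours Gpd1 and Pcx, Pcx and Pck1, and Mpc2 and Gpd2 overlapped between mice. In iADKO mice the order by mean was Gpd1 (351 ± 53.3 (SD, n = 6)), Pck1 (162 ± 87.0), Pcx (144 ± 38.9), Mpc1 (26.1 ± 5.31), Mpc2 (range 11.4 to 17.7) and Gpd2 (range 7.64 to 14.8). Pck1 and Pcx, which changed places, overlapped in both groups. Pcx minus Pck1, in log2 CPM within a mouse, differed by −0.05 between groups (95% interval from −0.90 to 0.83, exact permutation p = 0.886). The test did not reject differences in either direction within this interval.

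Of related enzymes, Pck2 did not pass the threshold, Gpd1l fell by less than Gpd1, and Gk rose. Pck2, the mitochondrial phosphoenolpyruvate carboxykinase, was at 42.7 to 47.1 CPM in fl/fl mice and at 38.7 to 48.9 CPM in iADKO mice. Its log2 fold change was −0.02 ± 0.0526 (edgeR adjusted p = 0.771). Per kilobase it stood at 5.40 ± 0.171 CPM in fl/fl mice, far below Pck1 in each group. Pck1 minus Pck2 within a mouse was 1.32 log2 units lower in iADKO mice (difference −1.32, 95% interval from −2.24 to −0.48, exact permutation p = 0.00466, a ratio added after the values were seen).

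Gpd1l, a cytosolic relative of Gpd1, was at 88.0 to 102 CPM in fl/fl mice and at 77.4 to 91.2 CPM in iADKO mice. It fell by less than Gpd1 (log2 fold change −0.24 ± 0.0493, edgeR adjusted p = 0.00288). Gpd1 minus Gpd1l within a mouse differed by −0.48 (95% interval from −0.86 to −0.10, exact permutation p = 0.0216, also added after the values were seen).

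Gk, glycerol kinase, rose from a median of 12.9 CPM (10.3 to 17.7) in fl/fl mice to 18.9 CPM (16.4 to 19.9) in iADKO mice, with overlap. Its log2 fold change was 0.45 ± 0.127 (edgeR adjusted p = 0.0162), a call that was lost with 3 runs of animal numbers, described below, as a block (0.41, edgeR adjusted p = 0.0630). With the 5 runs that smaller gaps give as a block, the call was kept (0.66, edgeR adjusted p = 0.0441). Per kilobase Gk remained the lowest of these enzymes in both groups, at 1.68 ± 0.378 and 2.29 ± 0.179 CPM. Pck1 minus Gk within a mouse was 6.62 ± 0.607 in fl/fl and 4.80 ± 0.905 in iADKO mice, a difference of −1.82 (95% interval from −2.74 to −0.93, exact permutation p = 0.00175, adjusted 0.00481).

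Further ratios set entry through carboxylation against entry through pyruvate dehydrogenase, and the cytosolic against the mitochondrial arm of the shuttle. Pdha1, the catalytic subunit of pyruvate dehydrogenase, fell by less than Pcx (log2 fold change −0.88 ± 0.140, edgeR adjusted p = 7.47e-04). Pcx minus Pdha1 was 1.49 to 1.80 in fl/fl mice and 0.97 to 1.29 in iADKO mice, with no overlap and with fl/fl 5 the lowest and iADKO 6 the highest of their groups. The difference was −0.51 (95% interval from −0.64 to −0.38, exact permutation p = 0.000583, adjusted 0.00321). Gpd1 minus Gpd2 moved the other way, from 3.43 ± 0.260 in fl/fl mice to 3.87 ± 0.243 in iADKO mice. That difference of 0.44 (95% interval from 0.12 to 0.75, exact permutation p = 0.0122, adjusted 0.0224) was no longer past the threshold without iADKO 4 (0.37, adjusted exact permutation p = 0.0528).

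**Figure D2:**
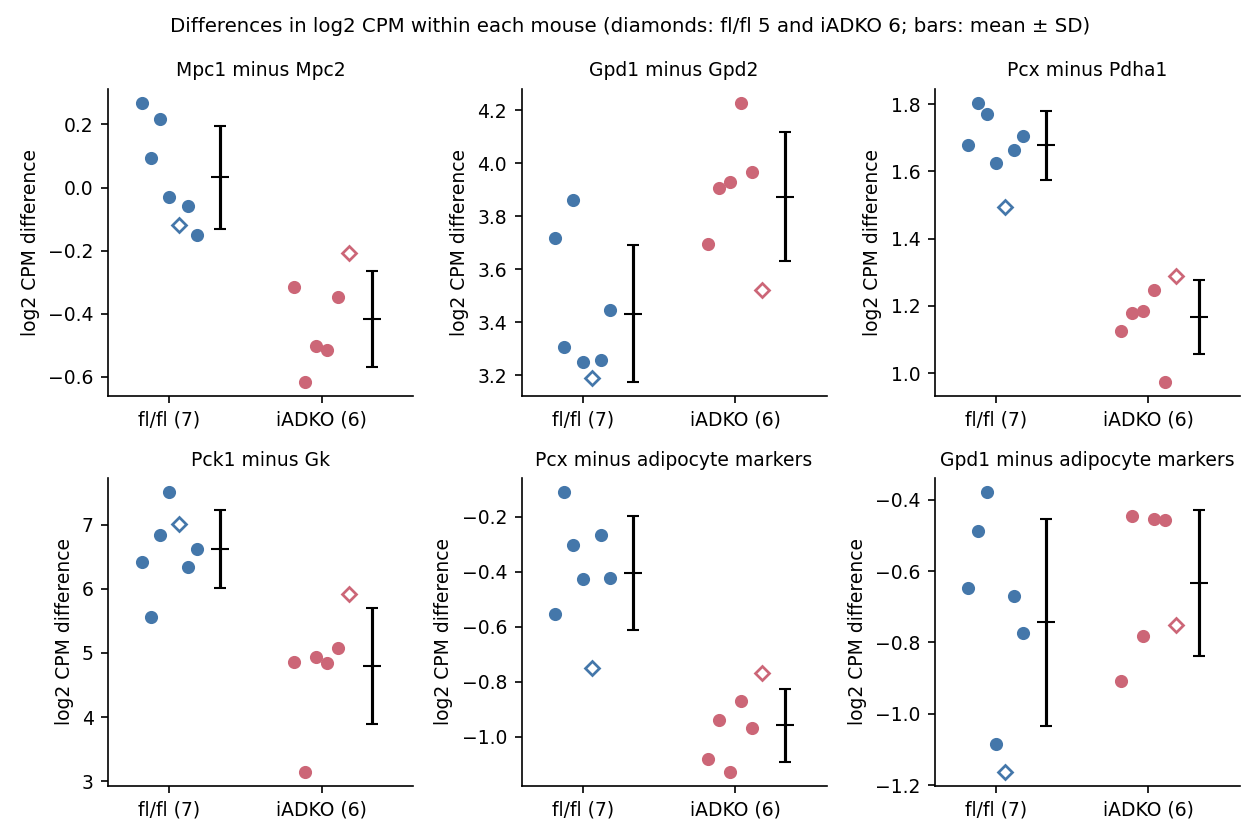
Differences in log2 CPM between gene pairs (or between a gene and the mean of 6 adipocyte markers) within each mouse, for 7 fl/fl (blue) and 6 iADKO (red) mice, with mean ± SD in black and fl/fl 5 and iADKO 6 as open diamonds. Mpc1 minus Mpc2, Pcx minus Pdha1 and Pcx minus adipocyte markers separate all 13 mice by label, whereas Gpd1 minus adipocyte markers overlaps fully. For Pcx minus adipocyte markers the separation is narrow, with fl/fl 5 at −0.751 and iADKO 6 at −0.768.

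Because adipocyte markers were lower too, each gene was set against their mean log2 CPM in the same mouse. Single markers changed by −0.61 ± 0.182 (Fabp4) to −1.11 ± 0.155 (Cidec), so these differences depend on which markers are averaged. Pcx fell by more than the mean of the markers, with a difference of −0.55 (95% interval from −0.77 to −0.33, exact permutation p = 0.00117, adjusted 0.00427). The groups did not overlap, but only narrowly, with fl/fl 5 at −0.751 and iADKO 6 at −0.768. Gpd2 also differed from the marker mean, by −0.33 (95% interval from −0.59 to −0.07, exact permutation p = 0.0122, adjusted 0.0224). Its own log2 fold change (−1.15) was close to that of Cidec. The Gpd2 difference did not pass the threshold when iADKO 3 or iADKO 4 was left out (adjusted exact permutation p = 0.0602 and 0.0579).

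The other 4 genes did not separate from the markers in all 13 mice. Gpd1 differed by 0.11 (95% interval from −0.20 to 0.42, exact permutation p = 0.445) and Mpc2 by 0.25 (from −0.02 to 0.53, exact permutation p = 0.0699). Pck1 differed by −0.50 with a wide interval (from −1.33 to 0.26, exact permutation p = 0.201). Mpc1 differed by −0.20 (from −0.48 to 0.10, exact permutation p = 0.170), and by −0.29 without fl/fl 5 and iADKO 6 (adjusted exact permutation p = 0.0476) or without fl/fl 5 alone (adjusted 0.0317). Mpc2 passed the threshold upward without iADKO 1 (0.32, adjusted exact permutation p = 0.0417). Intervals for these genes include falls in step with the markers as well as moderate departures from them.

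The surrounding pathway was described with 6 lists of genes. Together they held 72 genes, of which 71 were tested. Of these, 42 were lower, 3 were higher and 26 did not pass the threshold, with a median log2 fold change of −0.47 against 0.03 over all genes tested. Without fl/fl 5 and iADKO 6, 47 were lower and 8 were higher, while the share over all genes tested in that fit also rose, to 23.3% lower and 19.6% higher.

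Pyruvate cycling, in which citrate leaves mitochondria, is cleaved and returns as pyruvate, had 8 of 11 genes lower and none higher (median −0.51). The largest falls were in Me1, the cytosolic malic enzyme that yields NADPH (−1.94 ± 0.340, edgeR adjusted p = 0.00153), Acly, ATP citrate lyase (−1.64 ± 0.347), and Slc25a1, the citrate carrier (−1.44 ± 0.218). Me1 ran from 326 to 731 CPM in iADKO mice and had a median of 1852 CPM in fl/fl mice, of which fl/fl 5 was the lowest and within the iADKO range. The mitochondrial malic enzymes Me2 and Me3 did not pass the threshold (−0.05 ± 0.0901 and −0.19 ± 0.237), nor did Pck2.

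Other fates and sources of pyruvate had 12 of 19 genes lower and 1 higher (median −0.62). Gpt2 and Gpt, the alanine aminotransferases, had log2 fold changes of −1.21 ± 0.127 and −1.13 ± 0.205. Pdk1, a kinase that inhibits pyruvate dehydrogenase, fell by 1.04 on the log2 scale, and Pdk3, another such kinase, rose by 0.39. Every iADKO mouse was below every fl/fl mouse for Gpt2 (128 to 223 CPM against 301 to 434 CPM) and for Pdk1 (52.9 to 97.9 CPM against 99.1 to 151 CPM). Pdk4 did not pass the threshold (0.11 ± 0.308), nor did Ldhb or the monocarboxylate transporters Slc16a1, Slc16a3 and Slc16a7.

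Among other sources and users of glycerol-3-phosphate, 7 of 13 tested genes were lower and 1, Gk, was higher (median −0.43), and Gpat2 was not tested for low counts. Gpat3 and Gpam, which acylate glycerol-3-phosphate in the opening step of triacylglycerol synthesis, changed by −0.93 ± 0.118 and −0.90 ± 0.132, with no overlap between groups. Aldoa, the aldolase that yields dihydroxyacetone phosphate, changed by −0.83 ± 0.173. Aqp7, the adipocyte glycerol channel, did not pass the threshold (−0.47 ± 0.176, edgeR adjusted p = 0.0573). Aqp3, another glycerol channel, ran from 0.483 to 11.6 CPM in fl/fl mice and from 0.535 to 68.1 CPM in iADKO mice (edgeR adjusted p = 0.130). Its highest value was in iADKO 6, where 4 epithelial markers (Epcam, Krt8, Krt18 and Cdh1) summed to 171 CPM against a group median of 34.6 CPM.

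The malate-aspartate shuttle, like the glycerol phosphate shuttle, carries reducing equivalents into mitochondria. Its list was mixed, with 3 of 7 genes lower and 1 higher (median 0.10). The 3 lower genes are also in the pyruvate cycling list. Genes in this list alone all had positive log2 fold changes, from 0.10 to 0.55, of which 1 passed the threshold. Mdh1 and Mdh2, the malate dehydrogenases, changed by −0.65 ± 0.124 and −0.51 ± 0.111. Got1, the cytosolic aspartate aminotransferase, rose by 0.55 ± 0.140 (edgeR adjusted p = 0.00994) from a fl/fl median of 9.83 CPM to an iADKO median of 16.2 CPM. When fl/fl 5 and iADKO 6 were left out, 3 of the 7 were lower and 3 higher, beside the larger share of all genes called in that fit (19.6% higher).

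Pcx is a biotin enzyme, and 8 of 9 genes for biotin-dependent carboxylases and biotin handling were lower (median −0.72). Acaca and Acacb, the acetyl-CoA carboxylases, changed by −1.84 ± 0.218 and −1.45 ± 0.244, and Pcca, a propionyl-CoA carboxylase subunit, by −0.91 ± 0.116. Acaca and Pcca did not overlap between groups. Hlcs, the ligase that attaches biotin to these enzymes, did not pass the threshold (−0.07 ± 0.0714, edgeR adjusted p = 0.465).

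Of 15 transcriptional regulators linked to these genes, 7 were lower and none higher (median −0.26). Mlxipl (ChREBP), a carbohydrate-responsive activator of lipogenic genes, changed by −0.98 ± 0.125 with no overlap (85.7 to 105 CPM in iADKO mice against 142 to 259 CPM in fl/fl mice). Srebf1, an activator of fatty acid synthesis genes, changed by −0.86 ± 0.119, and Cebpa, an adipocyte regulator, by −0.75 (edgeR adjusted p = 7.86e-04). Pparg, the nuclear receptor central to adipocyte identity, was also lower (−0.70 ± 0.150). The coactivators Ppargc1a and Ppargc1b, Foxo1, Creb1 and Crtc2 did not pass the threshold.

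**Figure D3:**
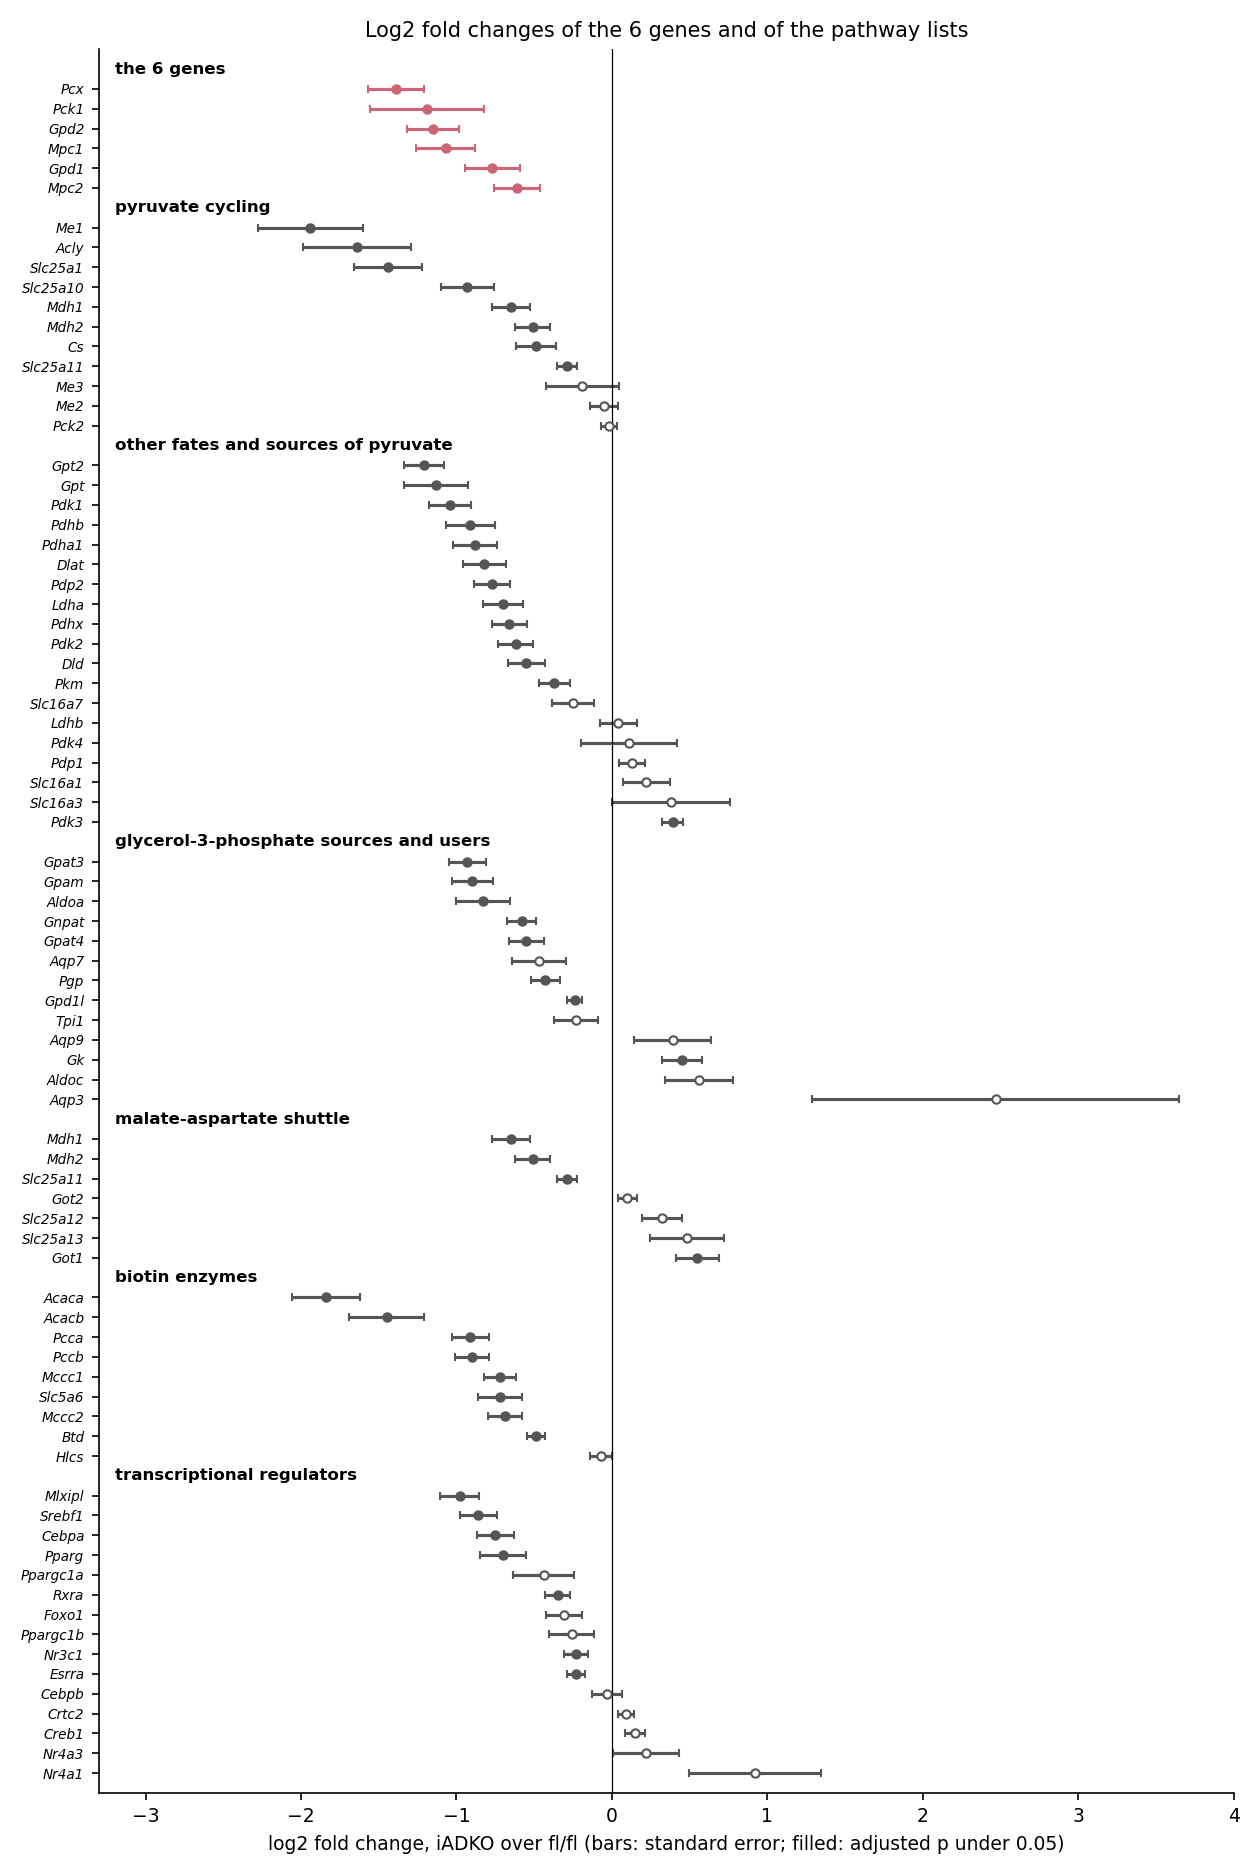
Log2 fold change of iADKO over fl/fl (horizontal axis, bars for the standard error) for the 6 genes in red and for the genes of the 6 lists in grey, from edgeR over 7 fl/fl and 6 iADKO mice. Filled points had an adjusted p under 0.05, with Pcx at −1.39 and Mpc2 at −0.61 as the extremes of the 6 genes.

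Promoters are described here for Pcx, Pck1, Gpd2, Mpc1 and Mpc2, from the GRCm39 genome, from 250 bases before to 50 bases from the start of the canonical transcript, as a description of genes that fell together. Which start site the tissue used was not measured. Shown are Pcx, which changed most, and Pck1, which varied most between mice. Capitals mark matches, on either strand, to the CCAAT box, the E-box core CACGTG and the GC box GGGCGG.
Pcx, chr19:4560235-4560534, plus strand: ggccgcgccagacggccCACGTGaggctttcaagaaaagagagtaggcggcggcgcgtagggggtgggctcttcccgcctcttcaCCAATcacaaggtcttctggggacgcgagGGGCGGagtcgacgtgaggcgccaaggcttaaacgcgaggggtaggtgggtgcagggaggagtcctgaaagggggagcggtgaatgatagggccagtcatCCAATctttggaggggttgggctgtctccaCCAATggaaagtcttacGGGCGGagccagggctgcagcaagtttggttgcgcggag
Pck1, chr2:172994591-172994890, plus strand: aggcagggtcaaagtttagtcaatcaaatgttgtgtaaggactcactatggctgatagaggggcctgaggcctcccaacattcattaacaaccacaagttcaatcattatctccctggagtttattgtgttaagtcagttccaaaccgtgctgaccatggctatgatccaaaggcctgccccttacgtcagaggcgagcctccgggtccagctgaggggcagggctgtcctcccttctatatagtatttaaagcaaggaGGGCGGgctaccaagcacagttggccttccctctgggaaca

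The E-box core was in the Pcx window (from base −233 of the start) and in 7.82% of 21757 promoter windows. The CCAAT box stood 3 times in the Pcx window and was also in the Mpc2 window, against 39.9% of all windows. The GC box was in the Pcx, Pck1, Gpd2 and Mpc1 windows and not in that of Mpc2, against 42.5% of all windows. The string TATAAA of the TATA box (13.2% of all windows) was in none of these windows. Nor were TGACGTCA of the cyclic AMP response element (2.45%) and AAGGTCA of the extended nuclear receptor motif (4.48%). Only exact strings were searched, so variant forms of these elements, in the Pck1 window too, were not looked for. Absence of a string is therefore not absence of the element. The shorter nuclear receptor motif AGGTCA, which the extended one contains, was in the Mpc1 window and in 15.1% of all windows. The Pck1 window had a GC share of 50.7% with 5 CpG, and the Gpd2 window one of 68.3% with 26 CpG, against medians of 54.3% and 11 over all windows.

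The 6 genes also varied between mice of the same label. After the mean of each genotype was subtracted, 10 of 15 gene pairs had a Pearson correlation past the threshold over the 13 mice (permutation within genotype, adjusted over 15 pairs), and 9 by Spearman's rho. The strongest were Gpd1 and Mpc1 (r = 0.93, rho = 0.83, adjusted permutation p = 0.0033 and 0.00802), Pcx and Gpd2 (r = 0.92, rho = 0.85, 0.0215 and 0.0318), and Mpc1 and Mpc2 (r = 0.92, rho = 0.67, 0.00489 and 0.0318). All 10 were among Pcx, Gpd1, Gpd2, Mpc1 and Mpc2. The 5 pairs with Pck1 had r from 0.08 to 0.34 and none passed (r = 0.34 with Pcx, adjusted permutation p = 0.329). In the pairs of Pck1 with Gpd1, Gpd2, Mpc1 and Mpc2, the mice farthest from the median of Pck1 were iADKO 2 and fl/fl 2, and without them r was 0.18, 0.63, 0.35 and 0.41. For Pck1 and Gpd2, r was −0.43 without fl/fl 5 and iADKO 6, so that its sign depended on which mice were left out.

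The correlations past the threshold rested on fl/fl 5 and iADKO 6. In 8 of the 15 pairs these were the 2 mice farthest from the median of the gene on the horizontal axis, and without them r fell to 0.02 for Pcx and Gpd2 and to 0.60 for Mpc1 and Mpc2. For Gpd1 and Mpc1 the farthest mice were fl/fl 5 and fl/fl 3, and r was 0.78 without them and 0.72 without fl/fl 5 and iADKO 6. Without fl/fl 5 and iADKO 6, r over all 15 pairs ran from −0.43 to 0.72, none passed the threshold, and 2 pairs had an unadjusted permutation p under 0.05. With fl/fl 5 alone left out 2 pairs passed, and with iADKO 6 alone left out 5 passed.

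**Figure D4:**
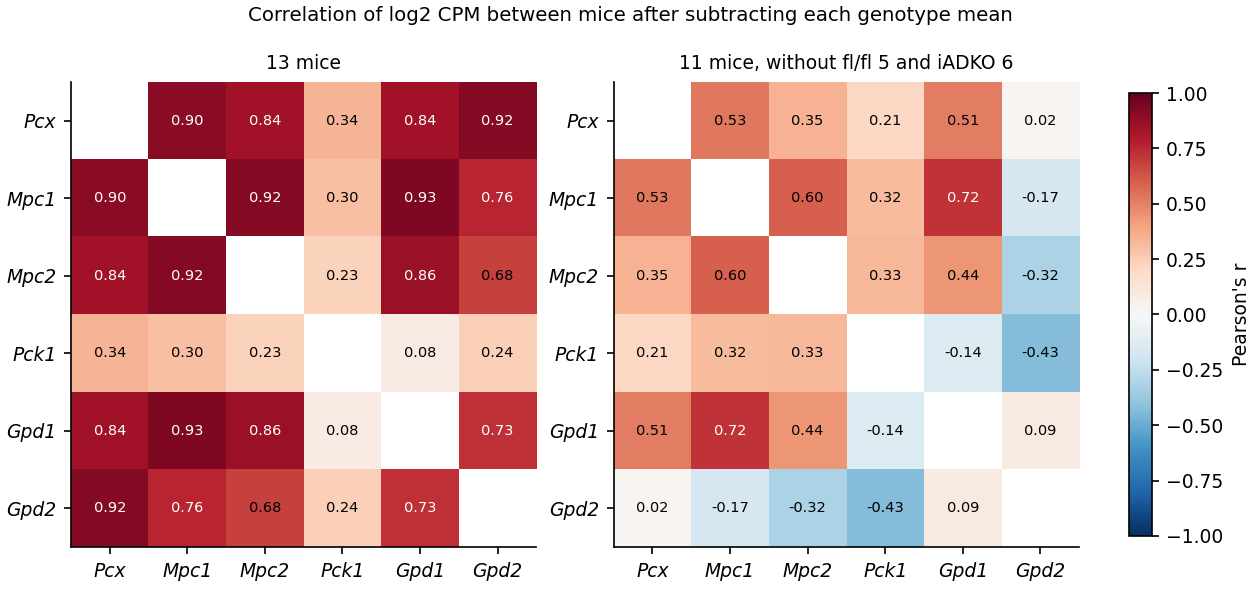
Pearson's r (colour and printed value) of log2 CPM between the 6 genes after subtraction of each genotype mean, over 13 mice at left and over 11 mice without fl/fl 5 and iADKO 6 at right. The value for Pcx and Gpd2 changes from 0.92 to 0.02. The row of Pck1 runs from 0.08 to 0.34 at left and from −0.43 to 0.33 at right.

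Among 10680 genes with a mean log2 CPM of at least 3, those most like each of the 6 over the 13 mice after subtraction of genotype means were named. For Mpc1 these were Pdhb (r = 0.984), Dlat (0.980), both parts of pyruvate dehydrogenase, and Gpx4 (0.977), which detoxifies lipid peroxides. These values were 0.92, 0.88 and 0.86 without fl/fl 5 and iADKO 6. Mpc2 was nearest to Park7 (0.950), Cycs, cytochrome c (0.947), and Pdhb (0.947), with 0.73, 0.67 and 0.67 without fl/fl 5 and iADKO 6. Pcx was nearest to Tmem143 (0.974), Pdha1 (0.966) and Dgcr6 (0.959), with 0.80, 0.38 and 0.62 without fl/fl 5 and iADKO 6. Gpd2 was nearest to Nudt18 (0.959), Cdk16 (0.947) and Nars2 (0.937), with 0.65, 0.32 and 0.82 without fl/fl 5 and iADKO 6. Gpd1 was nearest to Tmem205 (0.979) and Ciao1 (0.961), with 0.94 and 0.87 without fl/fl 5 and iADKO 6.

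Pck1 had neighbours of another kind. They were Txnip, a glucose-responsive arrestin-fold protein (r = 0.950), Fam161a (0.923) and Klf11, a zinc finger transcription factor (0.916), with 0.93, 0.91 and 0.96 without fl/fl 5 and iADKO 6. Txnip was lowest in fl/fl 2 (1154 CPM, group median 1702) and in iADKO 2 (1029 CPM, group median 1834), the same mice in which Pck1 was lowest. Klf11 was likewise lowest in fl/fl 2 (15.6 CPM, group median 28.5) and iADKO 2 (16.8 CPM, group median 34.5). Between genotypes these 3 genes did not pass the threshold (log2 fold change 0.17 ± 0.166 for Txnip, −0.19 ± 0.0981 for Fam161a and 0.22 ± 0.187 for Klf11), whereas Pck1 was lower. These neighbours were picked as the highest of many correlations, so their r carries no test. Their r without fl/fl 2 and iADKO 2 was not computed, so how far it rests on those 2 mice is not known.

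Animal numbers in the labels fell into 3 runs, and the genotypes were spread unevenly over them. Within the run that held 4 fl/fl and 2 iADKO mice, fl/fl 5 and iADKO 6 among them, log2 fold changes were −0.94 for Pcx, −0.93 for Pck1, −0.30 for Gpd1, −0.80 for Gpd2, −0.61 for Mpc1 and −0.35 for Mpc2. Within the run of 3 fl/fl and 2 iADKO mice they were −1.76, −1.75, −1.25, −1.43, −1.65 and −0.98 in the same order. The third run held iADKO mice alone. With the 3 runs as a block all 6 genes were still lower past the threshold (edgeR adjusted p from 0.00461 to 0.0327). Smaller gaps in the numbers split the mice into 5 runs, of which 1 held 2 fl/fl and 2 iADKO mice (fl/fl 5 and iADKO 6 among them), 1 held 3 fl/fl and 1 iADKO mouse, and the other runs held a single label. With these runs as a block, the fit left 0 of the 6 genes past the threshold (edgeR adjusted p from 0.0734 to 0.314). All 6 were lower there too, 4 at an unadjusted p under 0.05. That block also left 54 of all genes tested past the threshold, against 5104 without it.

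**Figure D5:**
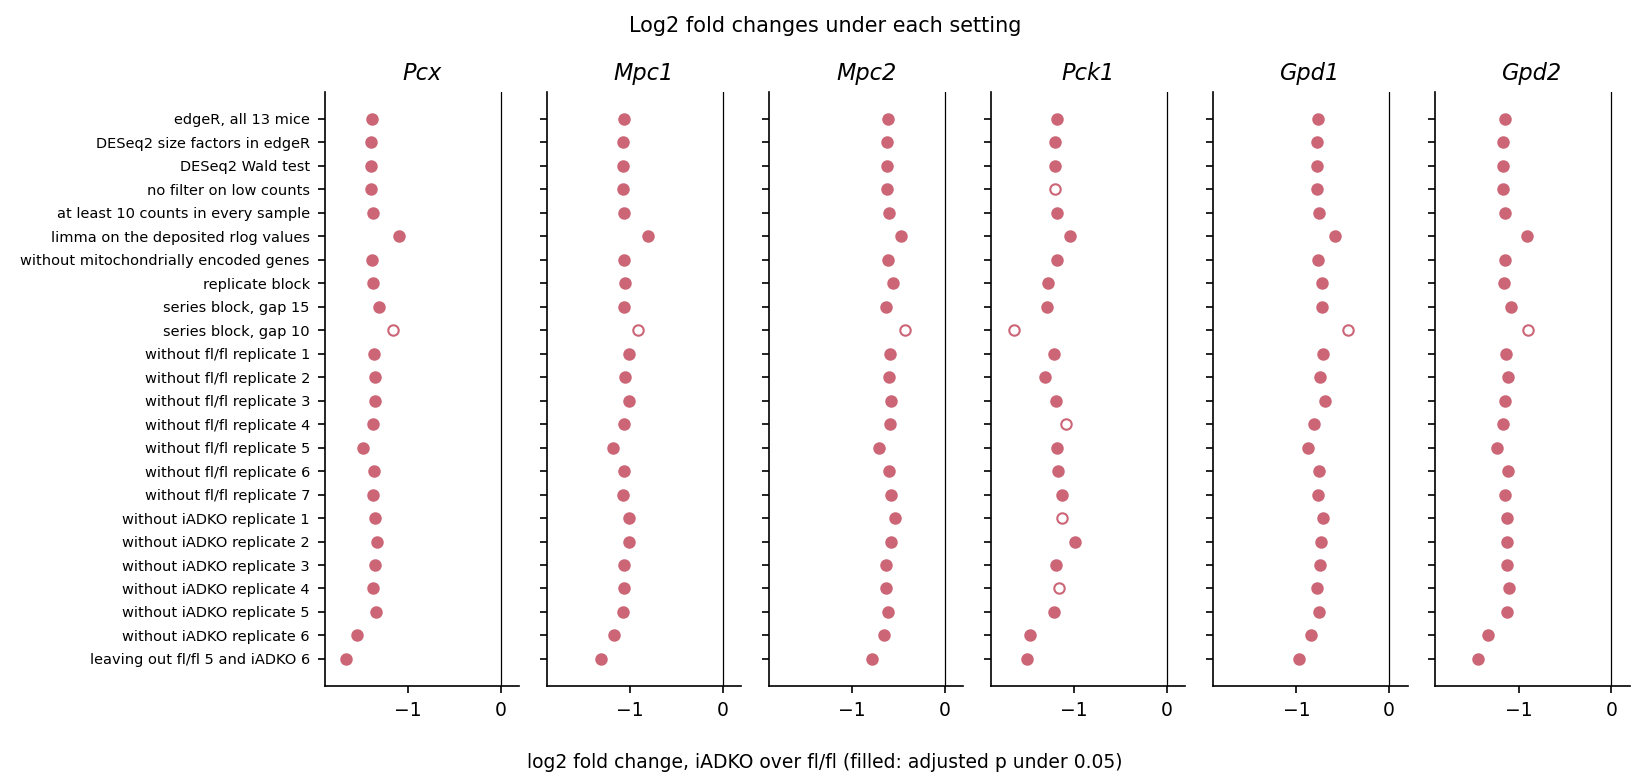
Log2 fold change of iADKO over fl/fl (horizontal axis) of the 6 genes under each setting, filled where the adjusted p was under 0.05. All points lie below 0, and the open points are the block on 5 runs of animal numbers (gap 10) for every gene, and for Pck1 also no filter on low counts and the fits without fl/fl 4, iADKO 1 or iADKO 4.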

How the data were processed

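Libraries were made with a strand-specific mRNA kit from powdered frozen pmWAT, 1 per mouse. Per the labels, the authors aligned reads to mm39 (the UCSC name of GRCm39) with STAR 2.7.11a after FastQC 0.12.1 and deposited raw read counts per gene and regularized log (rlog, log2-scale) values from DESeq2. The strand setting of the counting is not given in the sources used here, so reads shared with genes on the other strand cannot be told apart. Of 33618 rows, 33184 were found in GENCODE vM39. All listed symbols had a row.

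The counts were filtered (filterByExpr), scaled by TMM and fitted in edgeR 4.0.16 (robust quasi-likelihood) over all 13 mice, with Benjamini-Hochberg adjustment over 16753 genes. Fits were tested on simulated data. Ratios used log2 CPM with a prior count of 2 and exact two-sided permutation over 1716 splits, with intervals from the same test. Correlations used 100000 permutations within genotype. DESeq2 1.42.0, limma 3.58.1 on the deposited log2 (rlog) values, other filters and scalings, blocks and left-out libraries were alternatives. Chi-square per degree of freedom between libraries of a group was 8.16 to 88.8, so no library duplicated another of its label. Libraries of different labels were not compared in this way. Promoter windows were read from the GRCm39 genome at GENCODE starts, because the RefSeq promoter table was of another build.

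The 6 genes, the lists and the tests were chosen with earlier results of these data known. The text names Lmna, the 6 genes, Pck2, Gpd1l, Gk and Pdha1, up to 3 genes per list with the largest change past the threshold, and the 3 genes most correlated with each of the 6, except that 1 such gene and 1 promoter window are not reported here. Me2, Me3, Pdk3, Pdk4, Ldhb, the Slc16a transporters, Gpat2, Aqp3, Aqp7, Hlcs, Pparg, Ppargc1a, Ppargc1b, Foxo1, Creb1 and Crtc2 were named after their values were seen.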

Additional observations from a re-analysis of the deposited data

Results flagged for a closer look

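Of 48 groups of values tested for a sample far from the others (Dixon's ratio), 11 had one, where chance alone gives about 1 in 20. Of these, 5 were fl/fl 5 and 3 were iADKO 6. In fl/fl 5, Pcx was at 1345 CPM, Mpc1 at 93.0 CPM, Mpc2 at 101 CPM, Gpd1l at 88.0 CPM and Pdha1 at 478 CPM, each the lowest of the fl/fl mice. In iADKO 6, Pcx was at 1383 CPM, Gpd2 at 122 CPM and Pdha1 at 566 CPM, each the highest of the iADKO mice. Gpd1 and Pck1 CPM had no such sample.

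The remaining 3 concerned Pck1 within a mouse. In iADKO 2, Pcx minus Pck1 was 2.30 log2 units and Pck1 minus adipocyte markers was −3.24. In fl/fl 2, Pck1 minus Pck2 was 3.76.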

How the results depend on the processing

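No log2 fold change or ratio difference past the threshold changed sign under any alternative run. Below the threshold, Pck2 ran from −0.0482 to 0.0186 with a library left out, turning positive without iADKO 1 (0.0186). The difference in Pcx minus Pck1 ran from −0.36 to 0.16 and turned positive without fl/fl 2 (0.16), iADKO 3 (0.02), iADKO 5 (0.06) or iADKO 6 (0.05). The count of genes past the threshold ran from 3998 to 6604 with a library left out, that of the 6 genes from 5 to 6 and that of the list genes from 44 to 52. The ratios past the threshold ran from 4 (without iADKO 4) to 7 of 11, and the correlated pairs from 2 (without fl/fl 5) to 10 of 15. Leaving out both fl/fl 5 and iADKO 6, chosen after seeing the data, left 0 correlated pairs. The block on 5 runs of animal numbers left 54 genes, 0 of the 6 genes and 2 list genes past the threshold, and accounted for 26 of the 40 named values that lost their call. With fewer mice compared within runs that fit has less to go on, and whether run or genotype accounts for the rest cannot be told apart. Pck1 was also not past the threshold with no filter on low counts (edgeR adjusted p = 0.0740).

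Sample numbers are shared between the groups. Same-numbered mice deviated together (correlation over 0.1) in 3 of 6 pairs, mean 0.107, so the numbers were not taken to pair the mice, and 3 of 6 pairs correlated best with their own number. With the replicate block all 6 genes stayed past the threshold, and the gene count was 4833. Of the ratios, 0 of 11 were past the threshold in that pairing, where 6 sign flips cannot give an exact p below 0.0312. In that test 5 had an unadjusted exact p under 0.05, and all 11 kept their sign.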
